A study of Mus musculus with 10 samples.

Results

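The Hoxa cluster genes described here are Hoxa2, Hoxa3, Hoxa4, Hoxa5, Hoxa6, Hoxa7, Hoxa9, Hoxa10 and Hoxa11, which lie together on mouse chromosome 6. They were chosen by name, as probe sets for which the array platform's annotation gives that gene as the only symbol, keeping the probe set with the highest mean. Each of the 9 genes had exactly 1 such probe set, among 19938 genes measured. All 9 also passed the filter on low signal, a mean log2 signal of at least 6.23, which left 15662 genes to test. Values are log2 of the deposited signal, and a difference of 1 log2 unit is a doubling of signal. Probe sets bind their targets with different strength, so levels were compared between arrays for the same gene and not between genes.

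RNA came from mouse acute myeloid leukaemia cells driven by the MLL-AF9 fusion, sorted for the c-Kit receptor and measured on 10 arrays, 1 per leukaemia line and treatment. The fl 4-OHT group held lines 10949, 10950 and 10986, which carry the conditional Zfx fl/y allele and were treated with 10 nM 4-hydroxytamoxifen (4-OHT) and cultured for 72 h, and the fl vehicle group held the same 3 lines with ethanol. The wt 4-OHT group held lines 10977 and 10980, which carry the wild-type Zfx wt/y allele, with the same 4-OHT treatment, and the wt vehicle group held these 2 lines with ethanol. All 5 lines carried the tamoxifen-inducible Cre-ER transgene and were independent primary leukaemias from moribund mice, grown in serum with IL-3, IL-6 and SCF. The wt lines with 4-OHT therefore also had active Cre, but no loxP-flanked Zfx. The promoter that drives Cre-ER was not given in the sources used here. Each line is a single leukaemia, so the spread within a group is a spread between leukaemias.

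Hox genes encode homeodomain transcription factors, and their order along a cluster follows the order in which they are expressed along the body axis of the embryo. In blood, Hoxa genes are active in stem and progenitor cells and decline as the cells mature. MLL, encoded by Kmt2a, maintains their expression, and MLL fusions such as MLL-AF9 keep them on, together with Meis1, a DNA-binding partner of the Hoxa9 protein. Zfx is an X-linked zinc-finger transcription factor known for its role in the self-renewal of stem cells.

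Promoter windows are shown for the pair of neighbouring genes whose signals moved most closely together over the arrays, Hoxa5 and Hoxa6, and for Hoxa7 and Hoxa9, the next genes by paralogue number, whose signals moved less. RefSeq windows of assembly GRCm38.p6 were matched for 8 of the 9 genes, with 9 windows in all because Hoxa10 has 2, and Hoxa4 had no match. Each window runs from 250 bases before to 50 bases after the annotated start, is 300 bases long and lies on the minus strand. The Hoxa5 window is chr6:52204538-52204837 and the Hoxa6 window is chr6:52208623-52208922. The Hoxa7 window is chr6:52218524-52218823 and the Hoxa9 window is chr6:52227321-52227620. Sequences are given 5′ to 3′, and capitals mark ATTGG, the reverse complement of the CCAAT box.
Hoxa5: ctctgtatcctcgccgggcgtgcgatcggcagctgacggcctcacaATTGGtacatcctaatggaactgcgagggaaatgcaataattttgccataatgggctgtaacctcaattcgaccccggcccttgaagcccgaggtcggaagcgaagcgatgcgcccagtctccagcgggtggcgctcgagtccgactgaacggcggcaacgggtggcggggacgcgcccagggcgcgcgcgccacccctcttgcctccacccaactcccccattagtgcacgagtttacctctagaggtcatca
Hoxa6: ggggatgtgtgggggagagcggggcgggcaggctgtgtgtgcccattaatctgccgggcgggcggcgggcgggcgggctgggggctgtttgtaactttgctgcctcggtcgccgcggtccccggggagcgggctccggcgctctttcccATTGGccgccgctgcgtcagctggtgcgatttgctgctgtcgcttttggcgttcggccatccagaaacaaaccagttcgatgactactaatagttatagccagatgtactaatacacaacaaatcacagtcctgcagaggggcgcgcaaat
Hoxa7: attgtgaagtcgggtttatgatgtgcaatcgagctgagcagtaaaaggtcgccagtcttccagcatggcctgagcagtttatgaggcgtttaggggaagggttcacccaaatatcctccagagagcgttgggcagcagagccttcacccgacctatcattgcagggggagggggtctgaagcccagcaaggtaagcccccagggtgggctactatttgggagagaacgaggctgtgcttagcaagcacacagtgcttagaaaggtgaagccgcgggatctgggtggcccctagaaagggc
Hoxa9: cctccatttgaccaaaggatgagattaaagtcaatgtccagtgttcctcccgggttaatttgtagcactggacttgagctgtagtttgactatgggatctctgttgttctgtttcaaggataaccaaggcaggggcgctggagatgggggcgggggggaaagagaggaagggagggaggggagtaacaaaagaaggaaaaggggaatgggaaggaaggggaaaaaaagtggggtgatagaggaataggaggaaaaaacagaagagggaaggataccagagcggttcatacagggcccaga

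In these windows, 5 short motifs were searched on both strands, and none of them contains another. The CCAAT box, bound by the NF-Y factor and spelled CCAAT, was found in 1 place each in the Hoxa5 window, at position 47, and the Hoxa6 window, at position 150, counted from the 5′ end. None of the 5 motifs was found in the Hoxa7 or Hoxa9 window. Over the 9 windows, CCAAT was found in 4, those of Hoxa2, Hoxa5, Hoxa6 and 1 of Hoxa10, against 37.4% of all 32851 mouse windows. AGGCCT, a core reported for Zfx binding, was found in 0 of the 9 windows and in 10.3% of all windows. TGACAG, the Meis motif, was found in the windows of Hoxa2 and Hoxa3 (19.2% of all), and TGATTNAT, the composite Hox-Pbx motif, in that of Hoxa2 (3.22% of all). TATAAA was found in 1 Hoxa10 window (13.6% of all). The GC share of the windows was 45.7% for Hoxa2 and 49.7% to 64.0% for the other genes, against a median of 52.7% over all windows. The annotated starts do not follow the paralogue numbers throughout, since the Hoxa3 start lies between those of Hoxa6 and Hoxa7. Transcripts of Hoxa3 can therefore span Hoxa5 and Hoxa6, and whether the probe sets separate such transcripts was not given in the sources used here. Hoxa4 had no matched window, so its start was not placed in this order and such overlap was not checked for it.

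Across arrays, the median signal was 144.7 to 158.2. The vehicle array of line 10986 stood apart, with a score of 49.4 on the leading principal component (47.2% of the variance) against -20.4 to 23.0 on the other 9 arrays. Its mean correlation with the other arrays was 0.961, against 0.979 to 0.985. The Zfx probe set had log2 signals of 10.07, 9.98 and 10.02 in fl 4-OHT cells, against 10.09, 9.63 and 9.24 in fl vehicle cells (lines 10949, 10950 and 10986). The limma change was 0.37 (SE 0.16, adjusted p 0.407), so the array did not show lower Zfx signal after 4-OHT. Whether its probes lie inside the deleted exons was not given in the sources used here, so this signal checks neither the deletion nor the labels, and the groups are those of the labels. Kit, the sorted receptor, passed the filter on low signal, with log2 signals of 8.35 to 9.94.

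With Zfx fl alleles, 8 of the 9 genes had an estimated 4-OHT minus vehicle change below 0, and Hoxa7 had one of 0.04. Over all 15662 genes tested, 7832 estimates lay below 0. The 9 genes varied together over the arrays, so such counts of members are not counts of separate observations. None of the 9 passed the test. The median change of the 9 genes was -0.22 log2 units, against -4.03e-05 over all genes tested, and the estimates lay between -0.49 for Hoxa3 and 0.04 for Hoxa7. The 2 leukaemias 10949 and 10950 gave all 9 genes lower under 4-OHT (28.7% of all genes were lower in both), and line 10986 gave 5 of 9. Tests were made with limma with the line as a block and Benjamini-Hochberg adjustment over all 15662 genes, where 24 genes passed at 0.05 (0.153%), 16 of them lower (0.102%). Without adjustment, 2 of the 9 genes were lower with a p under 0.05, Hoxa3 and Hoxa11, against 5.65% of all genes. With array weights, which gave line 10949 a weight of 5.71 and line 10986 one of 0.162, 3907 genes passed, 1698 higher and 2209 lower (14.1% of all genes lower), and 7 of the 9 members were among the lower ones. In bulk RNA, fewer cells of a type and less RNA per cell cannot be told apart.

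**Figure D1:**
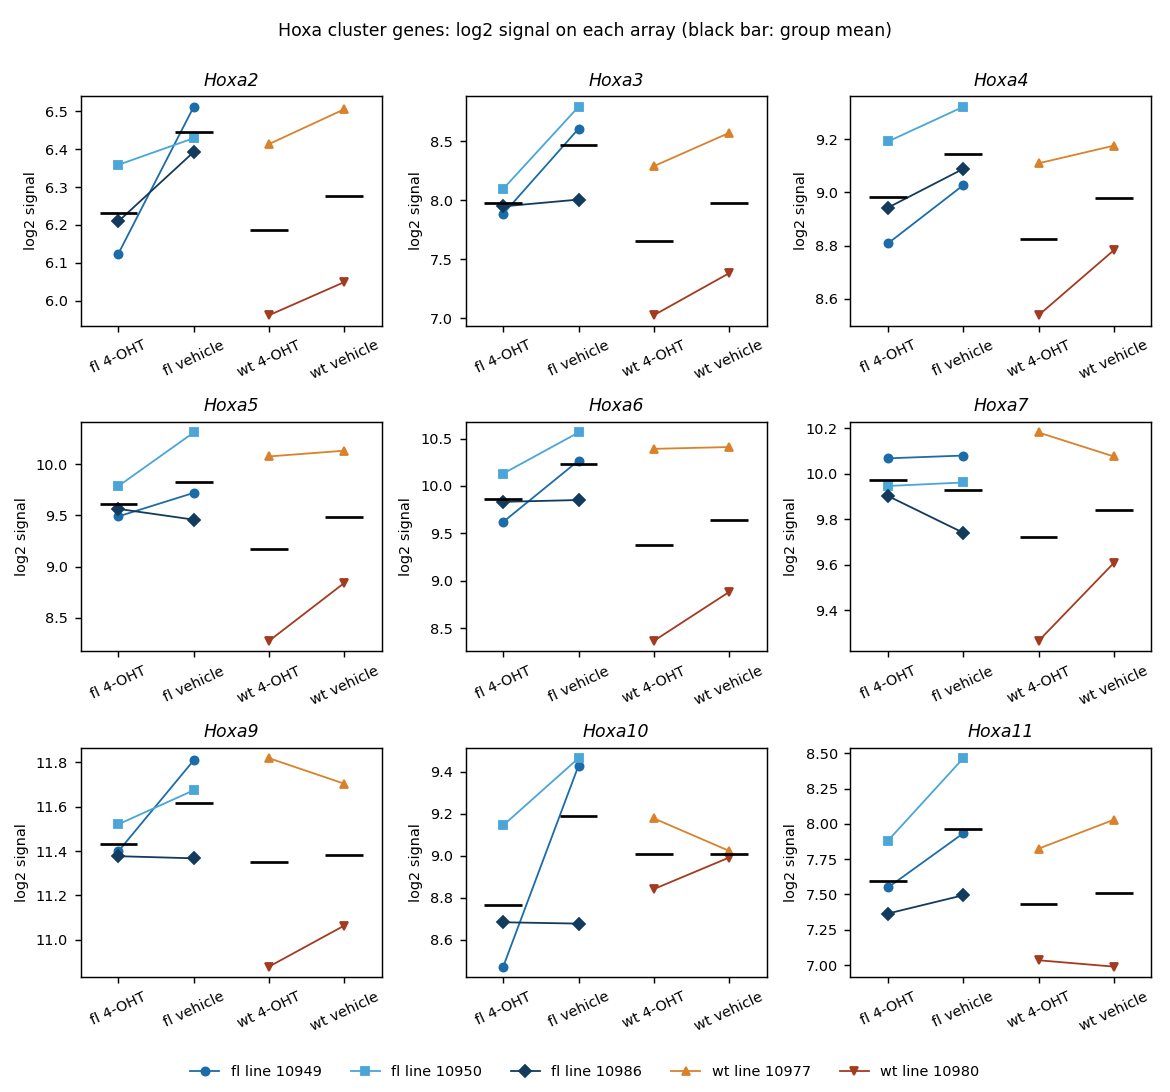
Log2 signal of each Hoxa gene (vertical axis, a separate scale per panel) in the 4 groups (horizontal axis); points joined by a line are the 4-OHT and vehicle arrays of the same leukaemia line, and black bars are group means. In the Hoxa5 panel, line 10980 has 8.28 under 4-OHT and 8.84 under vehicle, below the other 8 arrays.

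Among the anterior members, Hoxa2 is best known for patterning the hindbrain and the pharyngeal arches. Its log2 signals were 6.12, 6.36 and 6.21 in fl 4-OHT cells, against 6.51, 6.43 and 6.39 in fl vehicle cells (lines 10949, 10950 and 10986). The fl groups did not overlap for Hoxa2, which held for 7.27% of all genes in this direction and for none of the other 8 members. Outside the 9 members, and seen only after looking at the values, the same held for Hoxa13, Hoxb7, Hoxb9 and Hoxd11. Hoxa13, near the filter value of 6.23, had 6.23, 6.19 and 6.27 in fl 4-OHT cells, against 6.45, 6.29 and 6.31 in fl vehicle cells. In wt cells the signals of Hoxa2 were 6.41 and 5.96 with 4-OHT, against 6.51 and 6.05 with vehicle (lines 10977 and 10980). The fl change of Hoxa2 was -0.21 (SE 0.10, adjusted p 0.475) and -0.13 without line 10949, and some arrays lay under 6.23, the value used as filter, so the signal of Hoxa2 is close to the low end of what was tested.

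Hoxa3, needed for the thymus and parathyroid, had log2 signals of 7.89, 8.10 and 7.95 in fl 4-OHT cells, against 8.61, 8.79 and 8.01 in fl vehicle cells. The fl 4-OHT arrays lay close together and below the vehicle arrays of 10949 and 10950, while the vehicle array of 10986 lay inside their range. The changes were -0.72 and -0.70 in lines 10949 and 10950 and -0.06 in line 10986. In wt cells, signals were 8.29 and 7.03 with 4-OHT, against 8.57 and 7.38 with vehicle, changes of -0.28 and -0.36. All 5 lines thus had less Hoxa3 signal with 4-OHT, and the limma change was -0.49 in fl lines (SE 0.15, 95% CI -0.85 to -0.14, adjusted p 0.246) and -0.32 in wt lines (SE 0.18, adjusted p 0.9999). Without line 10986 the fl change was -0.71 with an adjusted p of 0.0119, where 440 genes passed and 1.89% of all genes passed as lower. Over 15 alternatives the adjusted p was 0.000242 to 0.823, with Hoxa3 past the threshold in 2 of them.

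Hoxa4, an anterior member with a role in the cervical skeleton of the mouse, gave 8.81, 9.19 and 8.94 in fl 4-OHT cells, against 9.03, 9.32 and 9.09 in fl vehicle cells. Its signals were 9.11 and 8.54 in wt 4-OHT cells, against 9.18 and 8.78 in wt vehicle cells. The 5 line changes were -0.22, -0.13 and -0.15 in fl lines and -0.07 and -0.24 in wt lines, the smallest spread between lines among the 9 genes (SD 0.07). The limma change was -0.17 in fl lines (SE 0.09, adjusted p 0.569) and -0.16 in wt lines (SE 0.11), with a difference of -0.01 (SE 0.15, 95% CI -0.36 to 0.34, adjusted p 0.998).

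Hoxa5 and Hoxa6, central members, had the widest ranges over the 10 arrays. Hoxa5, known for its role in lung development and as a regulator of myeloid differentiation, had log2 signals of 9.49, 9.79 and 9.56 in fl 4-OHT cells, against 9.72, 10.31 and 9.46 in fl vehicle cells. In wt cells, it had 10.08 and 8.28 with 4-OHT, against 10.13 and 8.84 with vehicle. The 4-OHT arrays lay inside the vehicle range in the fl lines, and the 2 wt lines differed by more than any treatment did. Hoxa6, which lies next to Hoxa5, had 9.62, 10.13 and 9.83 in fl 4-OHT cells, against 10.27, 10.56 and 9.85 in fl vehicle cells. Its wt signals were 10.39 and 8.37 with 4-OHT, against 10.41 and 8.88 with vehicle. The changes of Hoxa6 were -0.65, -0.43 and -0.02 in fl lines and -0.02 and -0.52 in wt lines, so a fl line and a wt line lay near 0. The limma changes in fl lines were -0.22 for Hoxa5 (SE 0.16, adjusted p 0.679) and -0.37 for Hoxa6 (SE 0.16, adjusted p 0.411). Leaving out a line gave -0.38 (without 10986) to -0.063 (without 10950) for Hoxa5 and -0.54 (without 10986) to -0.23 (without 10949) for Hoxa6.

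Hoxa7, which MLL fusions activate together with Hoxa9, had 4-OHT minus vehicle values of -0.01, -0.02 and 0.16 in fl lines and of 0.11 and -0.34 in wt lines. Its log2 signals were 10.07, 9.95 and 9.90 in fl 4-OHT cells, against 10.08, 9.96 and 9.74 in fl vehicle cells. In wt cells they were 10.18 and 9.27 with 4-OHT, against 10.08 and 9.61 with vehicle. The groups overlapped, and the fl change of 0.04 (SE 0.12, 95% CI -0.24 to 0.33, adjusted p 0.979) turned to -0.01 under quantile normalization.

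Among the posterior members, Hoxa9 is the Hox gene most closely tied to MLL-rearranged leukaemia. It had log2 signals of 11.40, 11.52 and 11.38 in fl 4-OHT cells, against 11.81, 11.67 and 11.37 in fl vehicle cells. Line 10949 gave a difference of -0.41, line 10950 one of -0.15 and line 10986 one of 0.01, and the fl estimate was -0.18 (SE 0.12, 95% CI -0.47 to 0.10, adjusted p 0.636). Without line 10949 this estimate was -0.072, and without line 10986 it was -0.28. In wt cells, Hoxa9 had 11.82 and 10.88 with 4-OHT, against 11.70 and 11.06 with vehicle, changes of 0.12 and -0.19. The wt estimate was -0.03 (SE 0.15). The interval for the fl lines allows a signal under 4-OHT down by 0.47 log2 units or up by 0.10.

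Hoxa10, which also acts in myeloid progenitors, had the largest change of any member in any line. Its log2 signals were 8.47, 9.15 and 8.68 in fl 4-OHT cells, against 9.43, 9.47 and 8.68 in fl vehicle cells, changes of -0.96, -0.32 and 0.01. In wt cells they were 9.18 and 8.84 with 4-OHT, against 9.02 and 8.99 with vehicle. Line 10949 set much of the fl estimate of -0.42 (SE 0.18, adjusted p 0.428), which was -0.16 without that line and -0.64 without line 10986. Hoxa11, known for limb, kidney and uterine development, had 7.55, 7.88 and 7.36 in fl 4-OHT cells, against 7.93, 8.47 and 7.49 in fl vehicle cells. All 3 fl lines were lower with 4-OHT (-0.38, -0.58 and -0.13), while the groups overlapped between lines. Its wt signals were 7.82 and 7.03 with 4-OHT, against 8.03 and 6.99 with vehicle, and the fl change was -0.37 (SE 0.12, 95% CI -0.65 to -0.08, adjusted p 0.284).

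**Figure D2:**
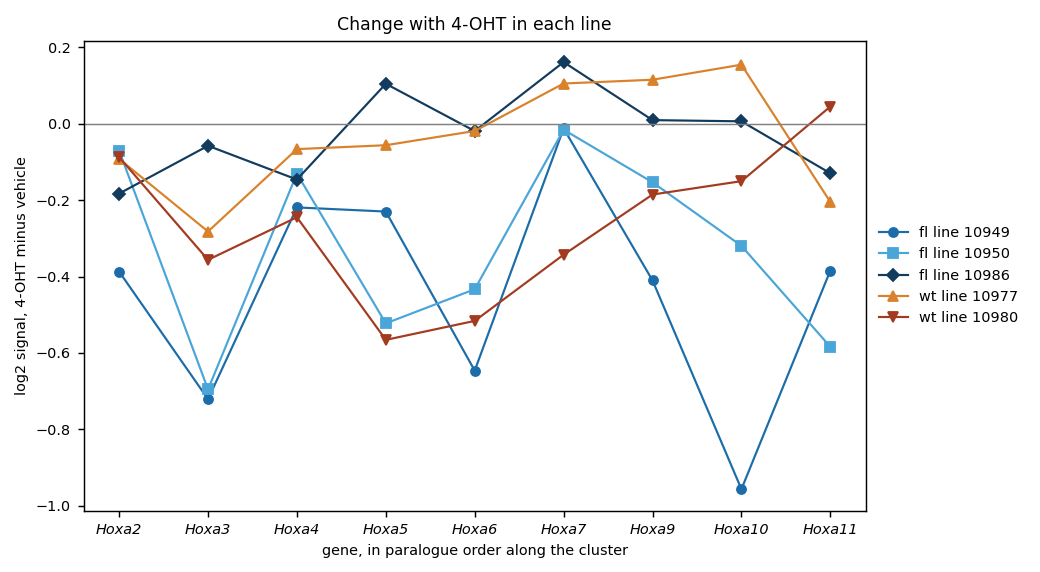
Change in log2 signal, 4-OHT minus vehicle (vertical axis), for each Hoxa gene in paralogue order (horizontal axis), with 1 line of points per leukaemia line. Lines 10949 and 10950 lie below 0 for all 9 genes, and the lowest point is Hoxa10 in line 10949 at -0.96.

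By line, the 9 genes had a median change of -0.39 in line 10949 and -0.32 in line 10950, where 52.6% and 42.5% of all genes were lower under 4-OHT. The median was -0.02 in line 10986, where 5 of 9 members and 54.5% of all genes were lower. In the wt lines, the median was -0.06 in line 10977, with 6 of 9 members lower (49.2% of all genes), and -0.24 in line 10980, with 8 of 9 lower (50.9% of all genes). Line 10980 is a wt line, so lower Hoxa signal with 4-OHT was also present in a leukaemia without the conditional allele. The 4 genes Hoxa2, Hoxa3, Hoxa4 and Hoxa6 were lower in all 5 lines, as were 2.36% of all genes. Hoxa2, Hoxa3, Hoxa4, Hoxa6 and Hoxa11 were lower in all 3 fl lines, as were 14.5% of all genes, and Hoxa2, Hoxa3, Hoxa4, Hoxa5 and Hoxa6 were lower in both wt lines (24.5% of all genes).

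In the wt lines alone, 8 of 9 genes had an estimated change below 0, as had 7855 of all 15662 genes. The median of the 9 was -0.12, against -0.000335 over all genes. None of the 9 passed the test (adjusted p 0.9999 for each), 0 of 15662 genes passed (0%), and 23 genes had an unadjusted p under 0.05 (0.147%), none of them a Hoxa member. The estimates ran from -0.32 for Hoxa3, -0.31 for Hoxa5 and -0.27 for Hoxa6 up to 0.0023 for Hoxa10. Line 10980 carried the values of Hoxa5 and Hoxa6, which were -0.056 and -0.019 without it, and -0.57 and -0.52 without line 10977.

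The difference of the 4-OHT effect, fl minus wt, asks whether the change in the conditional lines exceeded that in the lines with wild-type Zfx. It was below 0 for 7 of 9 genes and for 8167 of all 15662. The median of the 9 was -0.12, against -0.01 over all genes. None of the 9 passed (adjusted p 0.908 to 0.998), nor did any of the 15662 genes (0%), although 5.82% had an unadjusted p under 0.05, none of them a Hoxa member. The estimates lay between -0.43 for Hoxa10 (SE 0.29, 95% CI -1.12 to 0.27) and 0.16 for Hoxa7 (SE 0.19, 95% CI -0.28 to 0.61). The value of Hoxa10 was -0.16 without line 10949 and -0.64 without line 10986, and that of Hoxa7 was -0.061 without line 10980. Hoxa9 had a difference of -0.15 (SE 0.19, 95% CI -0.60 to 0.30). The intervals of all 9 genes include 0 and are wide, so neither a negative nor a positive difference within them is excluded by 3 fl and 2 wt line pairs.

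**Figure D3:**
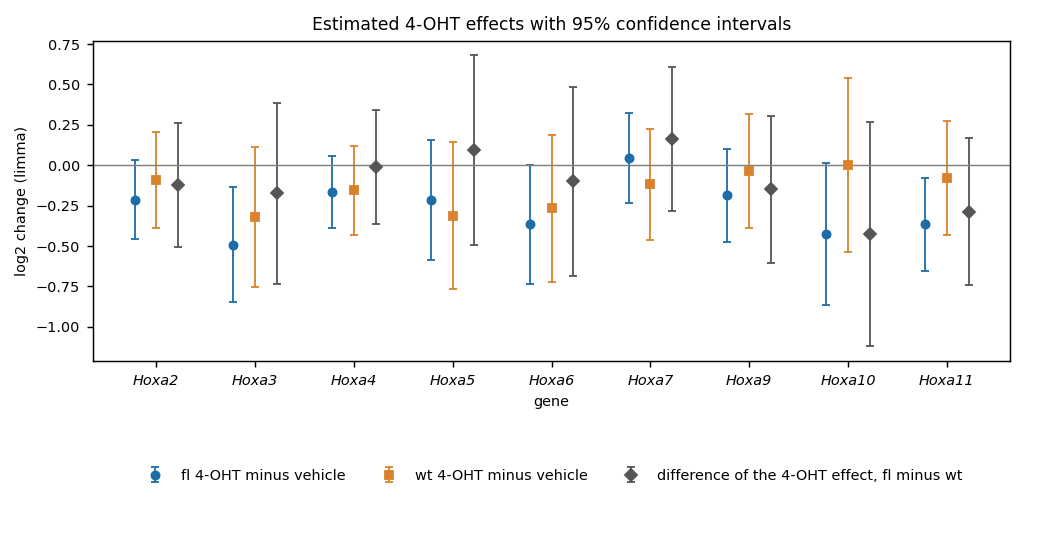
Limma estimates of the log2 change with 95% confidence intervals (vertical axis) for each Hoxa gene (horizontal axis), in fl lines, in wt lines and for their difference, fl minus wt. The fl intervals of Hoxa3 (-0.85 to -0.14) and Hoxa11 (-0.65 to -0.08) lie below 0, and all wt and difference intervals include 0.

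Between genotypes, all 9 Hoxa genes had a higher mean in fl vehicle cells than in wt vehicle cells, and 8 of 9 in fl 4-OHT cells than in wt 4-OHT cells. Over all 15662 genes, fl minus wt was below 0 for 7165 under vehicle and for 6830 under 4-OHT. For the 8 members other than Hoxa10, the differences rested on a single wt line: without line 10980, those of all 8 lay below 0 under either treatment. Under vehicle the median of fl minus wt was 0.23 log2 units, against 0.03 over all genes, and none of the 9 passed (adjusted p 0.557 to 0.845), where 0.0192% of all genes passed. No member had an unadjusted p under 0.05, against 9.83% of all genes. With array weights, 5 of the 9 passed as higher in fl vehicle cells, where 16.6% of all genes passed as higher. Under 4-OHT the median was 0.17, against 0.02 over all genes, and none of the 9 passed, where 0.645% of all genes passed, and no member had an unadjusted p under 0.05, against 10.8% of all genes. Hoxa6 had the largest differences, with means of 10.23 ± 0.36 in fl vehicle cells (SD, n = 3) and 9.65 ± 1.08 in wt vehicle cells (SD, n = 2). Its fl minus wt difference was 0.58 under vehicle (SE 0.55, adjusted p 0.602) and 0.48 under 4-OHT (SE 0.55, adjusted p 0.948).

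Ordered by mean, wt 4-OHT was the lowest group for 8 of 9 genes and fl vehicle the highest for 8 of 9. Hoxa10 was lowest in fl 4-OHT cells (8.77 ± 0.34, SD, n = 3) and Hoxa7 highest there (9.97 ± 0.09, SD, n = 3). Neighbours in this order mostly did not differ beyond their spread. Of the 3 gaps per gene, only that between fl 4-OHT and fl vehicle exceeded the larger SD of its pair, and only for Hoxa3 and Hoxa6. For Hoxa9 the means were 11.43 ± 0.08 in fl 4-OHT cells and 11.62 ± 0.23 in fl vehicle cells (SD, n = 3 each), and 11.35 ± 0.67 in wt 4-OHT cells and 11.38 ± 0.45 in wt vehicle cells (SD, n = 2 each).

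Line 10980 had the lowest line mean for every member except Hoxa10, which was lowest in line 10986. Over all genes, 27.7% had their lowest line mean in line 10980. For those 8 members, both arrays of line 10980 lay below the other 8 arrays, which held for 7.94% of all genes. Its mean minus that of the other 4 lines was -1.51 log2 units for Hoxa6, -1.26 for Hoxa5 and -1.07 for Hoxa3. This difference was -0.81 for Hoxa11, -0.61 for Hoxa9, -0.56 for Hoxa7, -0.42 for Hoxa4 and -0.36 for Hoxa2, and -0.09 for Hoxa10. Hoxa6 and Hoxa5 thus stood farthest below the other leukaemias in this line, and Hoxa10 was close to them. On the deposited scale, Hoxa6 had signals of 329.8 and 471.5 in line 10980 with 4-OHT and vehicle, against 1343.4 and 1361.1 in line 10977.

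**Figure D4:**
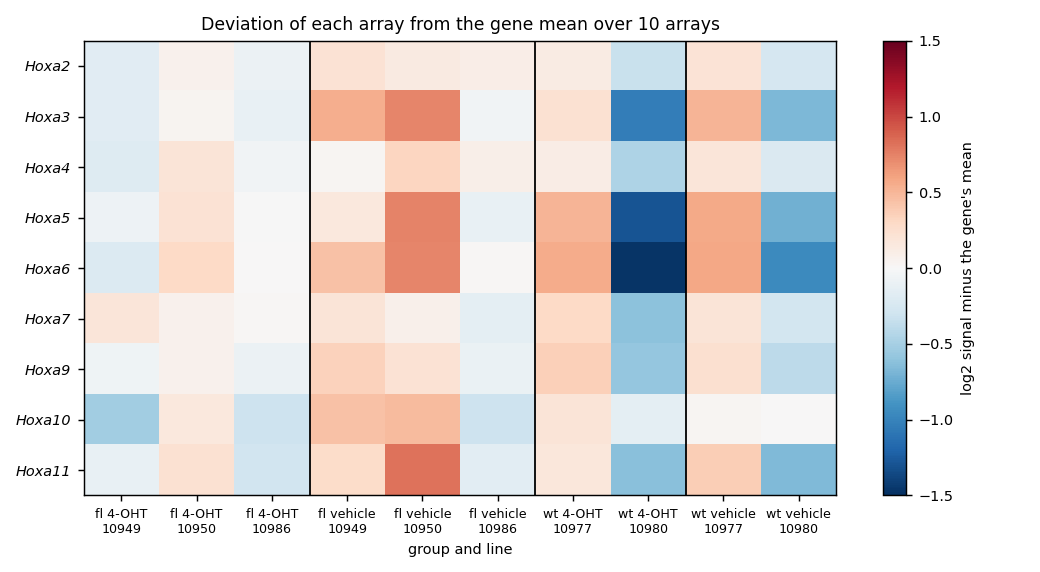
Log2 signal minus the gene's mean over 10 arrays (colour, in log2 units) for each Hoxa gene (rows) and array (columns, ordered fl 4-OHT, fl vehicle, wt 4-OHT, wt vehicle). The 2 arrays of line 10980 are blue for nearly all genes, with cluster means of -0.73 under 4-OHT and -0.46 under vehicle, and the Hoxa10 row is close to 0 there.

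Over the 10 arrays, the range of Hoxa6 was 2.20 log2 units, at the 98.8th percentile of all genes tested, that of Hoxa5 2.03 (98.3rd percentile) and that of Hoxa3 1.77 (96.9th percentile). Hoxa2 had a range of 0.55, close to the median gene at 0.56. The 9 genes varied together: Pearson's r over the 10 arrays had a median of 0.885 over the 36 pairs and reached 0.985 for Hoxa5 and Hoxa6. The lowest value was 0.284, for Hoxa7 and Hoxa10. The arrays share lines, and line 10980 carries much of this: without it, over 8 arrays, the median was 0.765 and the range -0.092 to 0.933. Hoxa10 went the other way, with a median r to the other members of 0.554 over 10 arrays and 0.803 without line 10980. Hoxa7 stood farther from Hoxa4 without that line (r of -0.092, against 0.697 with it).

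The genes whose profile over the 10 arrays was most like the mean of the 9 were Itga6, the integrin alpha 6 chain, with r of 0.939, Mxd3, a MYC-network repressor, with 0.896, and n-R5s136, a 5S ribosomal RNA gene, with 0.876. Without the vehicle array of line 10986, r was 0.940 for Itga6, 0.959 for Mxd3 and 0.876 for n-R5s136. Line 10980 carries much of the shared variation of the members, and r without that line was not computed for these genes. Itga6 was among the 3 most alike genes for 4 members, and Mxd3 and 1700006J14Rik for 3 each. Itga6 had its lowest signals in line 10980 too, 6.95 with 4-OHT and 7.29 with vehicle, against 7.60 to 8.52 on the other 8 arrays. Mxd3 had 7.35 and 7.43 in that line, against 7.59 to 7.82, and n-R5s136 had 10.54 and 10.55, against 10.76 to 11.34. How far the likeness rests on line 10980 was not tested. Hoxa10 had a set of its own, Dtnb (0.879), Iqce (0.868) and Acy3 (0.852).

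The other Hox clusters were measured on the same arrays. All 9 Hoxa members described here passed the filter on low signal, against 8 of 9 Hoxb genes, 3 of 9 Hoxc genes and 5 of 9 Hoxd genes. Hoxa13, a posterior gene of the Hoxa cluster that is not among the 9 members, was also measured and tested. It is counted with the neighbouring genes, and its fl change was -0.12 (SE 0.11, adjusted p 0.764). The signals of the other clusters had narrower ranges. The widest range of a gene over the 10 arrays was 2.20 log2 units for the Hoxa members. It was 0.43 for Hoxb, 0.34 for Hoxc and 0.52 for Hoxd. Mean log2 levels were 5.90 to 8.21 for the measured Hoxb genes, 5.82 to 6.44 for Hoxc and 6.09 to 6.87 for Hoxd. They were 6.30 to 11.46 for the Hoxa members. These levels overlap, and probe sets bind with different strength, so they do not rank the clusters by expression. The filter on low signal lay at 6.23. Whether low signal narrowed the ranges and changes of the Hoxb, Hoxc and Hoxd clusters was not tested. In fl lines the median 4-OHT change was -0.22 for the 9 Hoxa genes, -0.11 for the 8 Hoxb genes, -0.03 for the 3 Hoxc genes and -0.06 for the 5 Hoxd genes tested. All 8 Hoxb genes had an estimate below 0, with Hoxb7 at -0.16 (SE 0.09, adjusted p 0.571) and Hoxb3 at -0.14. Hoxc13 had -0.08, Hoxc9 -0.03, Hoxd11 -0.14 and Hoxd9 0.09. No gene of these clusters passed in any of the 5 comparisons.

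**Figure D5:**
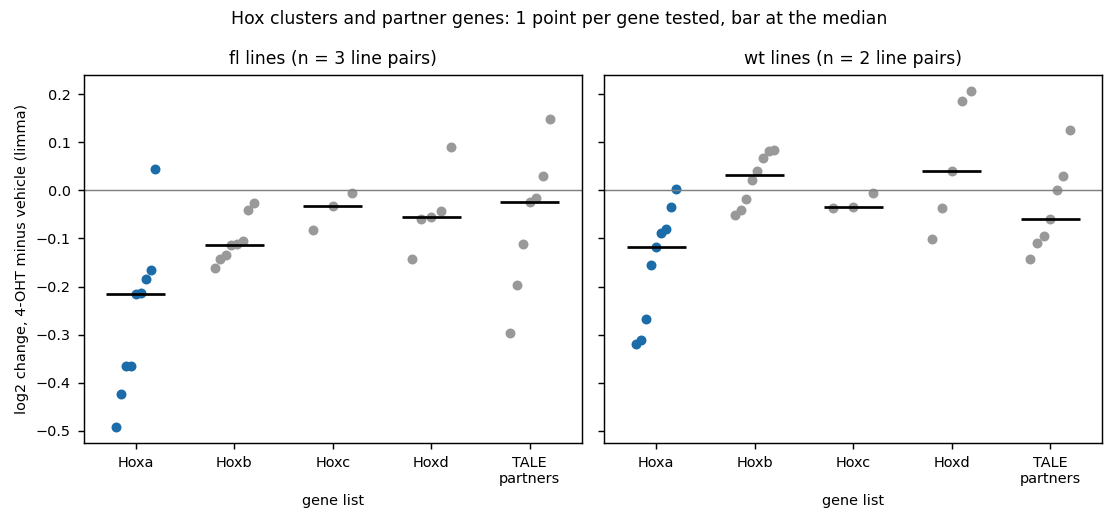
Log2 change, 4-OHT minus vehicle (vertical axis), in the 3 fl lines (left) and the 2 wt lines (right), for the 9 Hoxa members (without Hoxa13), and each tested gene of the Hoxb, Hoxc and Hoxd clusters and of the TALE partner genes (horizontal axis); bars are medians. The Hoxa medians are -0.22 in fl lines and -0.12 in wt lines, and no gene shown passed the test.

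Of 11 measured genes that neighbour the 9 members or are transcribed among them, Hoxa13 included, none passed in any comparison and 5 had an fl estimate below 0, with a median of 0.00. Snx10, a sorting nexin near the cluster, was higher with 4-OHT in all 3 fl lines (0.47, 0.58 and 0.95), with an estimate of 0.67 (SE 0.12, adjusted p 0.101), and Tax1bp1 had 0.26 (SE 0.20). The value of Tax1bp1 rested on line 10986, with line changes of -0.03, -0.07 and 0.88. Among the TALE homeodomain partners of Hox proteins, 7 tested genes had a median fl change of -0.02. Pknox1 had -0.30 (SE 0.11, adjusted p 0.341) and Pbx2 -0.20, and none passed. Meis1, chosen after its values were seen, had an estimate of 0.15 (SE 0.15, adjusted p 0.846), with line changes of -0.08, -0.07 and 0.59 in fl lines.

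The regulators of the cluster likewise did not pass in any comparison. Of 19 tested activators, which include the MLL complex and the AF9 partners, 8 had an fl estimate below 0, with a median of 0.01. Men1, which encodes menin, the MLL cofactor, had -0.38 (SE 0.18, adjusted p 0.474), and Aff4, a scaffold of the super elongation complex, had -0.35 (SE 0.11, adjusted p 0.268). Of 17 tested Polycomb genes and their antagonists, 9 lay below 0, with a median of -0.02. Rnf2 had 0.40 (SE 0.20) and Eed 0.34 (SE 0.18), again resting on line 10986. Their changes in lines 10949, 10950 and 10986 were 0.12, 0.04 and 1.04 for Rnf2 and 0.07, 0.06 and 0.91 for Eed. Of 16 genes reported as targets of Hoxa9 and Meis1, 6 lay below 0 in fl lines, with a median of 0.07. Cd34, a progenitor surface marker, had 1.04 (SE 0.35, adjusted p 0.292) and Id2, an inhibitor of basic helix-loop-helix factors, 1.01 (SE 0.25, adjusted p 0.173), both higher in all 3 fl lines, as were 14.6% of all genes. In lines 10949, 10950 and 10986 the changes were 0.58, 0.44 and 2.09 for Cd34, so line 10986 set much of its estimate. For Id2 they were 0.80, 0.87 and 1.35. In the wt lines 10977 and 10980 the changes were 0.58 and -0.50 for Cd34 and 0.46 and -0.88 for Id2.

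Markers of monocytes and macrophages moved with 4-OHT in some lines. Of 8 measured, all 8 were higher with 4-OHT in each of lines 10949, 10950, 10986 and 10977, with mean changes of 0.92, 0.74, 1.41 and 0.25, and 0 of 8 in line 10980, with -0.42. Over all genes, 52.6%, 42.5%, 54.5% and 49.2% were lower with 4-OHT in these 4 lines, and 50.9% in line 10980. In the fl comparison 2 of the 8 markers rose past the threshold, Vcan (1.48, adjusted p 0.0143) and Ctss (1.40, adjusted p 0.0460). Over all 15662 genes tested, 8 rose. The summed signal of the 8 markers was 11979 to 18188 in fl 4-OHT cells and 5818 to 9682 in fl vehicle cells. It was 6306 to 11530 in wt 4-OHT cells and 9238 to 9510 in wt vehicle cells. Hoxa signal was lower with 4-OHT in 10949 and 10950, where these markers were higher, and also in 10980, where they were lower. Line 10986, whose vehicle array stood apart, had the largest marker change and a median Hoxa change of -0.02. Line 10977, where the markers were also higher, had a median Hoxa change of -0.06. Neutrophil marker sums were 19766 to 25584 in fl 4-OHT cells and 17778 to 23601 in fl vehicle cells, and 31737 to 36772 in wt 4-OHT cells and 31652 to 33530 in wt vehicle cells. Elane had the highest signal of the 7 on every array, 13.41 to 14.18 in log2, and weighs most in these sums. The mean changes of the neutrophil markers were 0.47, 0.39 and 0.39 in lines 10949, 10950 and 10986, where 5, 5 and 3 of 7 were higher. Mmp8 was the 1 of 7 that rose past the threshold (2.56, adjusted p 0.0143). Its changes of 2.74, 2.18 and 2.75 in these lines made up most of the means. In lines 10977 and 10980 the mean changes were 0.24 and -0.23, with 7 and 1 of 7 higher. Stroma and endothelium sums were 2052 to 2201 in fl 4-OHT cells and 1220 to 1753 in fl vehicle cells, with none of the 4 markers past the threshold and Pecam1 at 0.80 (adjusted p 0.183). Pecam1 had the highest signal of the 4 and weighs most in these sums, with changes of 0.58, 0.38 and 1.45 in lines 10949, 10950 and 10986. Col1a1, Col3a1 and Cdh5 were lower in line 10986 (-0.23, -0.45 and -0.18). Their changes were 0.09, 0.01 and -0.05 in line 10949 and 0.31, 0.10 and 0.12 in line 10950. In wt cells the stroma and endothelium sums were 1395 to 1525 with 4-OHT and 1272 to 1685 with vehicle. The T cell markers Cd3g and Cd3d, the B cell marker Cd79a and the megakaryocyte marker Pf4 were below the filter on low signal. The part of these markers in the Hoxa values was not tested.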

How the data were processed

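RNA of c-Kit+ cells from 5 MLL-AF9 lines was measured on 10 single-colour arrays. The authors deposited 1 intensity per probe set and array on a linear scale, and the submitters' processing notes name RMA. No array software or version was given in the sources used here. Of the deposited intensity values, log2 was taken here. Of 35556 probe sets, 23410 are annotated, 21789 with 1 symbol and 1621 with several, and 12146 are unnamed here. A gene was represented by its single-symbol probe set of highest mean. The filter of 6.23 on the mean log2 is percentile 25 of the probe sets. Arrays have no read depth, so their number limits the precision.

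Limma 3.58.1 (R 4.3.3) was fitted to the 10 arrays together, with each line as a block and a 4-OHT term per genotype. It used moderated variances (3 residual and 3.694 prior degrees of freedom), two-sided tests and Benjamini-Hochberg adjustment at 0.05. Genotypes were compared between group means in a second fit, where duplicateCorrelation (statmod 1.5.0) gave a within-line correlation of 0.165. Lines are a block because the design describes both cultures as coming from each line. As a check of this pairing, array deviations from group means correlated at 0.78 within line 10949, 0.22 within 10950, -0.06 within 10986 and 0.43 within the wt lines, a single value because deviations from a mean of 2 lines mirror each other. Whether cultures of a line were repeated was not stated. The p-values of the 4-OHT tests rest on how far the 4-OHT change differs between lines. Those of the genotype tests rest on the spread of arrays around their group means, with 1 within-line correlation of 0.165 shared by all genes. Where the 2 arrays of a line are more alike than that, they count as more separate than they are, and these p-values can be too small. The procedure was tested on simulated data.

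The Hoxa genes and the gene lists were chosen with earlier results of these data known. All members were named. Each of the 8 other lists gave up to 4 genes that passed, or otherwise the 2 tested genes with the largest fl change. The 3 genes most alike in profile to a member or to the mean of the members, and Zfx and Kit as checks, could also be named. Alternatives were the block, the filter, the scale, the variance prior, array weights and leaving out lines or the vehicle array of line 10986.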

Additional observations from a re-analysis of the deposited data

How the results depend on the processing

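None of the 9 Hoxa genes passed in any comparison, and this held under most alternatives. The exceptions were array weights and, for Hoxa3 in fl lines, leaving out line 10986 (-0.71, adjusted p 0.0119). Array weights gave lines 10949 and 10986 weights of 5.71 and 0.162 in the block fit, and the vehicle array of 10950 a weight of 116 in the group fit, so 1 line or array carried most of the estimate. With them, 7 members passed as lower in fl lines, with changes of -0.21 to -0.87, where 14.1% of all genes passed as lower. Under vehicle, 5 passed as higher in fl than wt cells, with 0.34 to 0.95, where 16.6% of all genes passed as higher.

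With no replicate block, 28 genes passed in fl lines (5 higher, 23 lower), against 24 with the block (8 higher, 16 lower), and 83 with the replicate block as a random effect. There 8 passed with no level filter, 14 with a filter at the 50th percentile, 0 with all probe sets tested, 3 with median-centred arrays, 61 after quantile normalization (28 higher, 33 lower) and 3907 with array weights (1698 higher, 2209 lower). Leaving out a line gave 0 to 440 genes in fl lines, 0 to 20 for the difference, 0 to 15 for fl minus wt under vehicle and 0 to 51 under 4-OHT. For the difference, 1 gene passed with no replicate block or a random block and 359 with array weights, against 0. With no block and without the vehicle array of line 10986, 27 genes passed in fl lines and 1 for the difference. Under vehicle, against 3, 0 passed with no filter, the stricter filter, all probe sets or quantile normalization, and 6237 with weights. Under 4-OHT, against 101, 31 passed with all probe sets, 66 with centred arrays and 1106 with weights. In wt lines 0 passed under every alternative run.

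For single members, the fl change of Hoxa7 was -0.0068 after quantile normalization, -0.0082 with array weights and -0.049 with no block and without the vehicle array of line 10986, and -0.014 to 0.075 when leaving out a line. In wt lines, leaving out a line gave -0.34 to 0.11 for Hoxa7, -0.19 to 0.12 for Hoxa9, -0.15 to 0.15 for Hoxa10 and -0.20 to 0.045 for Hoxa11. The difference ranged from -0.10 to 0.080 for Hoxa4, -0.16 to 0.35 for Hoxa5 (-0.090 with no block and without the vehicle array of line 10986), -0.35 to 0.15 for Hoxa6, -0.061 to 0.39 for Hoxa7 and -0.30 to 0.00066 for Hoxa9. For Hoxa2, Hoxa3, Hoxa10 and Hoxa11 it ranged from -0.20 to -0.037, -0.39 to -0.057, -0.64 to -0.16 and -0.41 to -0.16. For fl minus wt under vehicle, leaving out a line gave -0.061 to 0.39 for Hoxa2, -0.10 to 1.09 for Hoxa3, -0.030 to 0.36 for Hoxa4, -0.30 to 0.99 for Hoxa5, -0.18 to 1.35 for Hoxa6, -0.15 to 0.32 for Hoxa7, -0.087 to 0.55 for Hoxa9 and -0.065 to 0.98 for Hoxa11. Under 4-OHT the same gave -0.18 to 0.27, -0.31 to 0.95, -0.13 to 0.44, -0.46 to 1.34, -0.53 to 1.496, -0.21 to 0.71, -0.39 to 0.55 and -0.23 to 0.56 for these 8 genes in the same order. The lowest of these genotype values are those without line 10980, where the lone wt line was assumed to vary like the other groups. The cause was not tested.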
